A study of Rattus norvegicus with 48 samples.

Results

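Cbx7 and 8 other Polycomb genes (Cbx2, Cbx6, Cbx8, Ring1, Rnf2, Ezh1, Ezh2 and Bmi1) were followed across 6 groups of rat nucleus accumbens libraries. They were the 9 genes found under these symbols among the 32883 identifiers of the deposited count table, and all 9 passed the filter on low counts that left 15580 genes for testing. Cbx7 was chosen because it was higher at withdrawal day 40 than at day 1 in both neuron types, so its own differences among cocaine and saline libraries of a neuron type are a description, given without a test. The question put to the other 8 genes was whether they moved with it.

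The libraries came from adult male and female rats that took cocaine or saline by self-administration in 10 sessions. Translating ribosome affinity purification, a pull-down of tagged ribosomes with antibodies to green fluorescent protein (GFP), gave RNA from D1 medium spiny neurons in D1:Cre rats, or from A2a (D2) medium spiny neurons in A2a:Cre rats. The 6 groups of 8 libraries were D1 neurons with cocaine at day 40, with cocaine at day 1 and with saline at day 1, and A2a neurons with cocaine at day 40, with cocaine at day 1 and with saline at day 1. All 6 groups thus carried a Cre transgene and a GFP tag, and the Cre driver sets which neurons were sampled. The sources used here give neither the sex of each animal nor the construct that carried the tag. There was no saline group at day 40, and a number in the sample descriptions, of unstated meaning, takes 1 value in all D1 day 40 libraries, another in all A2a day 40 libraries and others at day 1. Withdrawal day, time itself and that number therefore cannot be told apart in any comparison of day 40 with day 1 or with saline. In the comparison of day 40 with saline, cocaine itself cannot be told apart from these. At day 40 neuron type and that number cannot be told apart either. Neuron type and rat line (D1:Cre or A2a:Cre) cannot be told apart in any condition.

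Polycomb proteins keep genes silent through chromatin. Polycomb repressive complex 2 (PRC2) holds the methyltransferase Ezh1 or Ezh2 and methylates histone H3. Polycomb repressive complex 1 (PRC1) can find that mark through a CBX protein, such as Cbx2, Cbx6, Cbx7 or Cbx8, and holds the ubiquitin ligase Ring1 or Rnf2, which acts on histone H2A together with a PCGF protein such as Bmi1. In mouse medium spiny neurons, PRC2 is known to hold down genes of other cell types and of other stages of development.

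Phf1, a PRC2 partner, was called higher at day 40 than at cocaine day 1 only in the mean of both neuron types. Cbx6 lies 2 protein-coding genes from Cbx7, with Apobec3 between them. For Cbx7, Phf1 and Cbx6 the sequences just before the transcription start are shown. Each is the 250 bases before the start in RefSeq on GRCr8, 5′ to 3′ on the gene's strand, with capitals for matches on either strand to the GC box GGGCGG or the E-box CACGTG. Cbx7 (chr7:113358347-113358596, minus strand), Phf1 (chr20:5019725-5019974, plus strand) and Cbx6 (chr7:113263414-113263663, minus strand) read as follows.
Cbx7: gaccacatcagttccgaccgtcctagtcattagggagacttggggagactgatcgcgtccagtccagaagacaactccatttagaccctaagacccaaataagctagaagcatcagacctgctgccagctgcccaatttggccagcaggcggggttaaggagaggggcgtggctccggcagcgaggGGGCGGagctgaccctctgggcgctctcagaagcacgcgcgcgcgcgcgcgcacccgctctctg
Phf1: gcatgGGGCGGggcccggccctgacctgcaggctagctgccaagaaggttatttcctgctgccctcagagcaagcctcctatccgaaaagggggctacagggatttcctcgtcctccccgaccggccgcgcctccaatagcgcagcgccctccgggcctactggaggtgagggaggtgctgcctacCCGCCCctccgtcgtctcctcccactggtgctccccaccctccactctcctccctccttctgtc
Cbx6: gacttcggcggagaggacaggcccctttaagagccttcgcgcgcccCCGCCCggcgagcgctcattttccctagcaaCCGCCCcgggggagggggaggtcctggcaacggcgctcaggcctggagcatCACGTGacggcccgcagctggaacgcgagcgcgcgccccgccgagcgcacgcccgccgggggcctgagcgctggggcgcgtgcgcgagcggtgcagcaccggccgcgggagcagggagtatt
The GC box stood in all 3 windows and in 30.5% of the 33469 windows of the same length over all genes. The E-box stood in the Cbx6 window and in 5.59% of all windows, and these letters were not in the Cbx7 or Phf1 window. The cyclic AMP response element TGACGTCA, present in 1.59% of all windows, was in none of the 3. Cbx7 had 19 CpG dinucleotides in its window, Phf1 14 and Cbx6 36, against a median of 5 over all windows. RefSeq windows were matched for 7 of the 9 Polycomb genes, all except Cbx2 and Ezh1. Each of the 7 windows held the GC box, also those of genes that did not pass by day. The window of Kdm2b, a PRC1 partner higher at day 40 than at cocaine day 1 in the mean of both types, held none of the 3 motifs.

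Cbx7 (ENSRNOG00000016875), a chromodomain protein that brings PRC1 to methylated histone H3, was higher at day 40 than at day 1 in both neuron types, by about the same amount. In D1 neurons it had 88.4 CPM (counts scaled by library total) in the lowest, a median of 99.1 and 108.1 in the highest cocaine day 40 library. The cocaine day 1 libraries of D1 neurons ran from 75.6 over a median of 79.5 to 88.1 CPM. The saline libraries of D1 neurons ran from 80.0 over a median of 86.8 to 87.9 CPM. All 8 D1 day 40 libraries thus lay above all 8 cocaine day 1 libraries and above all 8 saline libraries, though the margin between the lowest day 40 library and the highest day 1 library was small. Such a separation upward was seen for 0.128% of all genes tested against cocaine day 1 and for 0.25% against saline.

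In A2a neurons Cbx7 ran from 84.8 over a median of 89.5 to 94.3 CPM at cocaine day 40. It ran from 66.8 over a median of 73.2 to 83.5 CPM at cocaine day 1. In saline it ran from 71.1 over a median of 76.9 to 84.9 CPM. All 8 A2a day 40 libraries lay above all 8 cocaine day 1 libraries, as 0.0449% of all genes did, and 7 of 8 lay above all saline libraries. On the log2 scale the difference of day 40 from cocaine day 1 was 0.28 ± 0.04 (SE) in D1 and 0.29 ± 0.04 in A2a neurons. The difference of day 40 from saline was 0.21 ± 0.04 in both neuron types. Cocaine day 1 lay slightly under saline, by -0.07 ± 0.04 in D1 and -0.08 ± 0.04 in A2a neurons. D1 and A2a neurons thus differed by -0.01 ± 0.06 in the day 40 to day 1 difference, a value that the choice of Cbx7 bears on and that was not tested. In RNA from tissue, more ribosome-bound Cbx7 per neuron and a larger share of neurons with high Cbx7 cannot be told apart.

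**Figure D1:**
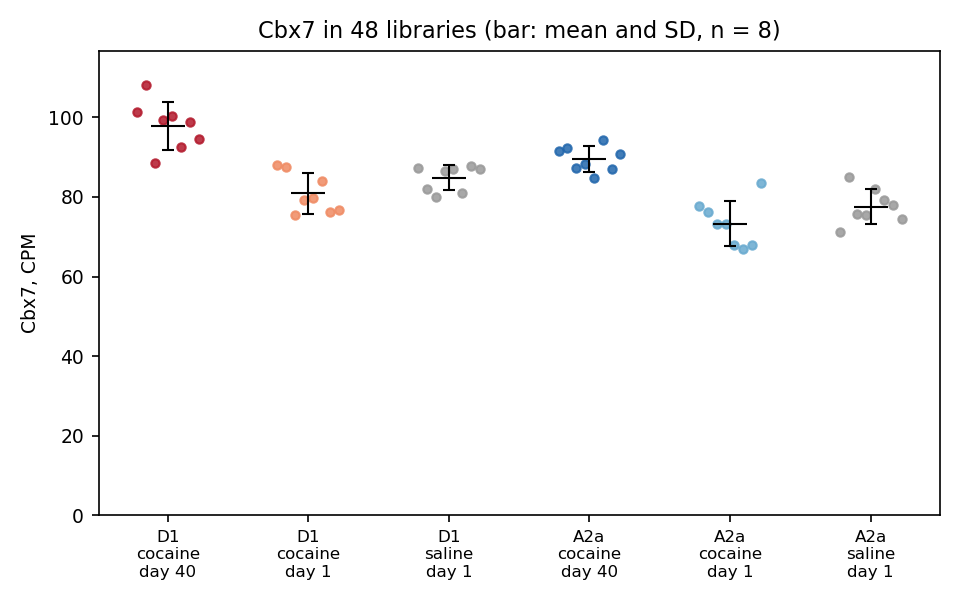
Cbx7 in CPM (vertical axis, from 0) in each of the 48 libraries by group, with the group mean and SD as a black bar (n = 8). The 8 D1 day 40 libraries, 88.4 to 108.1 CPM, and the 8 A2a day 40 libraries, 84.8 to 94.3 CPM, sit above all cocaine day 1 libraries of their own neuron type.

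Ordered by mean, Cbx7 averaged 97.9 ± 6.05 CPM in D1 cocaine day 40, 89.6 ± 3.23 in A2a cocaine day 40, 84.9 ± 3.24 in D1 saline, 80.9 ± 5.06 in D1 cocaine day 1, 77.6 ± 4.42 in A2a saline and 73.3 ± 5.75 CPM in A2a cocaine day 1 (SD, n = 8 each). The ranges of all groups next to each other in this order overlapped. Cbx7 was higher in D1 than in A2a neurons at cocaine day 40 and day 1, and missed the threshold in saline at a like difference. The log2 difference was 0.13 ± 0.04 at cocaine day 40 (edgeR adjusted p = 0.0290), 0.14 ± 0.04 at cocaine day 1 (adjusted p = 0.0289) and 0.13 ± 0.04 in saline (adjusted p = 0.0575), against a threshold of 0.05. At day 40 the call was lost without D1 day 40 replicate 2 (0.11, adjusted p = 0.0879), A2a day 40 replicate 5 (0.12, adjusted p = 0.0605) or A2a day 40 replicate 7 (0.12, adjusted p = 0.0513). At cocaine day 1 it was lost without D1 replicate 1 (0.12, adjusted p = 0.0716), 2 (0.12, adjusted p = 0.0767) or 6 (0.13, adjusted p = 0.0574), and without A2a replicate 5 or 6 (0.12, adjusted p = 0.0718 each) or 7 (0.13, adjusted p = 0.0610), the last being the shallowest library. In saline it was gained without A2a saline replicate 2 (0.15, adjusted p = 0.0277), A2a saline replicate 5 (0.14, adjusted p = 0.0473) or A2a cocaine day 1 replicate 8 (0.13, adjusted p = 0.0443).

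Of the other 8 genes, Ezh1 was higher at day 40 than at cocaine day 1 in the mean of both neuron types, and none passed the test in either type alone. In D1 neurons 0 of 8 passed the edgeR test of day 40 against day 1, where 1.85% of all genes passed, and 1 of 8 had an unadjusted p under 0.05, as 15.3% of all genes did. In A2a neurons 0 of 8 passed, where 0.263% of all genes passed, and 2 of 8 had an unadjusted p under 0.05, as 10.5% of all genes did. DESeq2 called 0 of the 8 in either neuron type. These counts lie near the shares of all genes and show nothing particular to the 8. Averaged over both neuron types, 1 of 8 passed, Ezh1, where 1.78% of all genes passed. Their median log2 difference was -0.057 in D1 neurons, where that of all genes was -0.006, and 0.059 in A2a neurons, where that of all genes was 0.000.

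**Figure D2:**
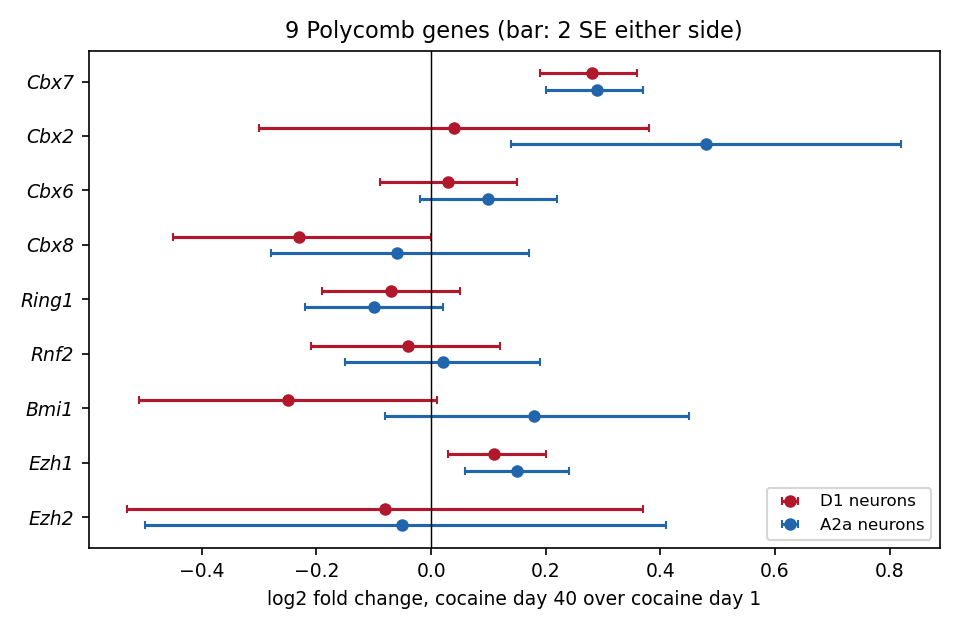
Log2 fold change of cocaine day 40 over cocaine day 1 (horizontal axis) for the 9 Polycomb genes in D1 neurons (red, upper of each pair) and A2a neurons (blue), with bars of 2 SE. Cbx7 stands at 0.28 and 0.29, Ezh1 at 0.11 and 0.15, and the bars of Cbx2, Ezh2 and Bmi1 are the widest.

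Among the CBX readers of PRC1, Cbx6 (ENSRNOG00000046955) was lower in D1 than in A2a neurons at day 40 and did not pass by day. At cocaine day 40 it had 284.9 CPM in the lowest, a median of 333.3 and 408.5 in the highest D1 library, against 348.5, a median of 386.1 and 472.2 CPM in A2a libraries. The groups overlapped, with 5 of 8 D1 libraries below all A2a libraries. In the same comparison 8 of 10 microglia markers (median log2 difference -0.835) and 8 of 11 interferon-response genes (median -2.273) passed as lower in D1, and 0 of either list passed at cocaine day 1 or in saline. Their part in the differences of Cbx6, Cbx7 and the wider list between the types at day 40 was not tested. The log2 difference of D1 from A2a neurons was -0.22 ± 0.06 at day 40 (edgeR adjusted p = 0.00585), and it passed the threshold with each of the 48 libraries left out in turn. It was -0.15 ± 0.06 at cocaine day 1 (adjusted p = 0.110) and -0.17 ± 0.06 in saline (adjusted p = 0.0711), neither of which passed. Leaving out A2a cocaine day 1 replicate 4 brought the day 1 difference past the threshold (-0.18, adjusted p = 0.0476), and leaving out D1 day 40 replicate 7 (-0.17, adjusted p = 0.0443) or A2a saline replicate 4 (-0.19, adjusted p = 0.0448) did so for saline. In the same comparisons of D1 with A2a neurons, 1 of the 8 genes other than Cbx7 passed at day 40, where 20.4% of all genes passed. At cocaine day 1, where 11.1% of all genes passed, and in saline, where 8.13% passed, 0 of 8 passed, with 0 by DESeq2. An unadjusted p under 0.05 was reached by 1 of 8, Cbx6, in each, as by 23.8% of all genes at cocaine day 1 and by 19.9% in saline. By day, Cbx6 gave 0.03 ± 0.06 in D1 (adjusted p = 0.884) and 0.10 ± 0.06 in A2a neurons (adjusted p = 0.584).

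Cbx2 (ENSRNOG00000049215), a CBX protein known to compact chromatin, was counted at low depth. It averaged 4.38 ± 1.07 CPM at D1 cocaine day 40, 4.26 ± 0.521 at D1 cocaine day 1 and 5.05 ± 1.28 CPM in D1 saline (SD, n = 8). In A2a neurons it averaged 5.52 ± 1.83 CPM at cocaine day 40, 3.98 ± 0.992 at cocaine day 1 and 4.76 ± 0.710 CPM in saline. The A2a day 40 libraries spread from 3.36 to 8.53 CPM and overlapped the day 1 libraries, 2.67 to 5.45 CPM. The log2 difference of day 40 from day 1 was 0.48 ± 0.17 in A2a (edgeR adjusted p = 0.223) and 0.04 ± 0.17 in D1 neurons (adjusted p = 0.944), so the largest fitted difference among the 9 genes did not pass.

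Cbx8 (ENSRNOG00000048113), the CBX gene beside Cbx2, did not pass in any comparison by day. In D1 neurons it ran from 7.41 to 16.3 CPM at cocaine day 40, against 10.8 to 15.4 CPM at cocaine day 1 and 10.5 to 12.6 CPM in saline. The D1 day 40 libraries were the more scattered, with values both under and over all those of the other D1 groups. The log2 difference of day 40 from day 1 was -0.23 ± 0.11 in D1 (adjusted p = 0.331) and -0.06 ± 0.11 in A2a neurons (adjusted p = 0.915).

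The ubiquitin ligases Ring1 and Rnf2, the catalytic subunits of PRC1, did not pass by day in either neuron type. Ring1 (ENSRNOG00000000467) averaged 42.8 ± 2.22 CPM at D1 cocaine day 40 and 44.9 ± 3.28 at D1 cocaine day 1, and 40.4 ± 2.85 at A2a cocaine day 40 and 43.2 ± 3.07 CPM at A2a cocaine day 1. Its log2 difference by day was -0.07 ± 0.06 in D1 (edgeR adjusted p = 0.623) and -0.10 ± 0.06 in A2a neurons (adjusted p = 0.586), with 2 SE ranges of -0.19 to 0.05 and -0.22 to 0.02. Rnf2 (ENSRNOG00000002454) averaged 29.0 ± 2.63 CPM at D1 cocaine day 40 and 29.9 ± 4.01 at D1 cocaine day 1, and 28.8 ± 3.49 at A2a cocaine day 40 and 28.4 ± 2.59 CPM at A2a cocaine day 1. Its log2 difference was -0.04 ± 0.08 in D1 (adjusted p = 0.856) and 0.02 ± 0.08 in A2a neurons (adjusted p = 0.969).

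Bmi1 (ENSRNOG00000016585), the PCGF subunit that activates the ligase, had fitted differences of opposite sign in the 2 neuron types. It ran from 6.79 over a median of 7.63 to 9.47 CPM at D1 cocaine day 40, against 7.22 over a median of 9.65 to 11.6 CPM at D1 cocaine day 1. In A2a neurons it ran from 6.72 over a median of 9.09 to 11.2 CPM at cocaine day 40, against 5.04 over a median of 7.75 to 11.1 CPM at cocaine day 1. All of these ranges overlapped. The log2 difference was -0.25 ± 0.13 in D1 (adjusted p = 0.368) and 0.18 ± 0.13 in A2a neurons (adjusted p = 0.662). The difference between the neuron types was -0.43 ± 0.19, and it did not pass (edgeR adjusted p = 0.386). In that interaction 0 of 8 passed by edgeR, where 0.0642% of all genes passed, and 0 of 8 by DESeq2. Bmi1 was the 1 of 8 with an unadjusted p under 0.05, as 10.5% of all genes had.

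**Figure D3:**
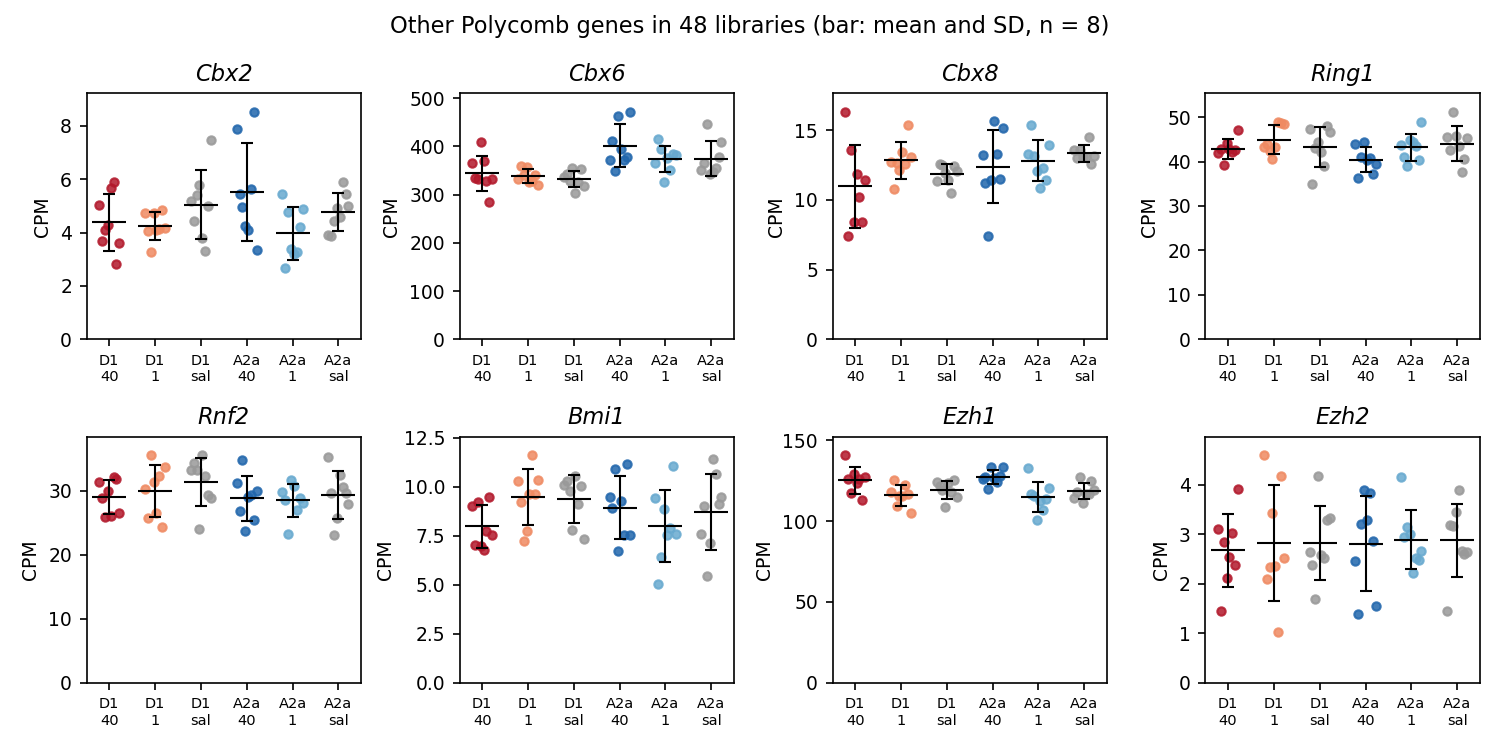
CPM (vertical axes, each from 0) of the 8 other Polycomb genes in each of the 48 libraries by group (40, cocaine day 40; 1, cocaine day 1; sal, saline), with mean and SD bars (n = 8). The Ezh1 means are highest at day 40 in both neuron types, the Cbx6 means are lower in D1 than in A2a neurons, and the points of every gene overlap across groups.

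Of the PRC2 methyltransferases, Ezh1 (ENSRNOG00000020336), in mouse the form of cells that have stopped dividing, was higher at day 40 than at cocaine day 1 in the mean of both neuron types. In D1 neurons it had 112.9 CPM in the lowest, a median of 126.1 and 140.8 in the highest cocaine day 40 library, against 105.3, a median of 116.1 and 125.3 CPM at cocaine day 1. In A2a neurons it ran from 120.0 over a median of 126.9 to 133.5 CPM at cocaine day 40, against 101.0 over a median of 114.7 to 132.6 CPM at cocaine day 1. The groups overlapped in both neuron types. Of the day 40 libraries, 5 of 8 in D1 and 2 of 8 in A2a neurons lay above all day 1 libraries of their type. The mean log2 difference over both types was 0.13 ± 0.03 (edgeR adjusted p = 0.0164), with a 2 SE range of 0.07 to 0.19. It passed with each of the 48 libraries left out in turn, at adjusted p from 0.00382 to 0.0382.

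Within a neuron type the Ezh1 difference did not pass. It was 0.11 ± 0.04 in D1 (adjusted p = 0.177) and 0.15 ± 0.04 in A2a neurons (adjusted p = 0.118), and the difference between the types was -0.04 ± 0.06 (adjusted p = 0.907). Without A2a cocaine day 1 replicate 1, the highest library of its group, the A2a difference became 0.18 and passed (adjusted p = 0.0412). Against saline the day 40 difference of Ezh1 was 0.07 ± 0.04 in D1 (adjusted p = 0.448) and 0.10 ± 0.04 in A2a neurons (adjusted p = 0.872). The saline mean of Ezh1 was 119.5 ± 5.51 CPM in D1 and 118.6 ± 5.17 CPM in A2a neurons (SD, n = 8), between the day 40 and the day 1 means of each type. Reads of Ezh1 and of an overlapping long noncoding RNA in the RefSeq annotation (GRCr8) cannot be told apart without the strand setting of the counts, and the same holds for Cbx7, which a long noncoding RNA also overlaps, and for Ezh2 and its overlapping neighbour Cul1.

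Ezh2 (ENSRNOG00000006048), the methyltransferase of dividing cells, was counted at low depth. It ran from 1.46 to 3.93 CPM at D1 cocaine day 40 and from 1.03 to 4.60 CPM at D1 cocaine day 1. In A2a neurons it ran from 1.38 to 3.90 CPM at cocaine day 40 and from 2.23 to 4.16 CPM at cocaine day 1. Its counts were 13 to 200 per library. The log2 difference by day was -0.08 ± 0.23 in D1 (edgeR adjusted p = 0.913) and -0.05 ± 0.23 in A2a neurons (adjusted p = 0.969). The 2 SE range of Ezh2 reached past the difference of Cbx7 in each type alone and lay below it in the mean of both. The parts of depth and of scatter between libraries in this width were not tested.

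Compared with saline, 0 of the 8 genes other than Cbx7 passed the edgeR test in any comparison. At day 40 this was 0 of 8 in D1 neurons, where 2.61% of all genes passed, and 0 of 8 in A2a neurons, where 0.0% passed. At cocaine day 1 it was 0 of 8 in D1 neurons, where 0.0% of all genes passed, and 0 of 8 in A2a neurons, where 0.0706% passed. An unadjusted p under 0.05 was reached in A2a neurons at day 40 by 2 of 8, Ezh1 and Ring1, as by 5.38% of all genes. It was reached by 0 of 8 in D1 neurons at day 40 (16.2% of all genes), in D1 neurons at day 1 (2.33%) and in A2a neurons at day 1 (5.98%). DESeq2 called 0 of 8 in each. The interactions of neuron type with cocaine day 40 (0.154% of all genes passed) and with cocaine day 1 (0.00642% passed) called 0 of 8 by edgeR and by DESeq2, with 0 of 8 at an unadjusted p under 0.05, as 8.92% and 3.35% of all genes had.

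A wider list held 43 further Polycomb genes, of which 41 were in the table and 40 were tested. By day, 0 of 40 passed in D1 neurons and 0 of 40 in A2a neurons, where 1.85% and 0.263% of all genes passed, and DESeq2 called 0 of 40. An unadjusted p under 0.05 was reached by 5 of 40 in each type, as by 15.3% of all genes in D1 and 10.5% in A2a neurons. Averaged over both types 2 of 40 passed as higher at day 40 than at cocaine day 1, Phf1 and Kdm2b, where 1.09% of all genes did. None of the 40 passed as lower. The median log2 difference of the 40 was -0.068 in D1 and 0.004 in A2a neurons.

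Phf1 (ENSRNOG00000000480), a Polycomb-like protein that binds PRC2, was higher at day 40 than at cocaine day 1 in the mean of both types. In D1 neurons it ran from 81.2 over a median of 91.2 to 107.6 CPM at cocaine day 40, against 75.0 over a median of 84.1 to 87.8 CPM at cocaine day 1. In A2a neurons it ran from 71.6 over a median of 84.7 to 90.0 CPM at cocaine day 40, against 67.5 over a median of 74.6 to 78.8 CPM at cocaine day 1. The groups overlapped, with 5 of 8 day 40 libraries above all day 1 libraries in D1 and 6 of 8 in A2a neurons. The mean difference over both types was 0.15 ± 0.03 (edgeR adjusted p = 0.0155), and it passed with each of the 48 libraries left out in turn. Within a type it was 0.14 ± 0.05 in D1 (adjusted p = 0.119) and 0.16 ± 0.05 in A2a neurons (adjusted p = 0.160).

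Against saline, Phf1 at day 40 gave 0.03 ± 0.05 in D1 (adjusted p = 0.796) and 0.05 ± 0.05 in A2a neurons (adjusted p = 0.999). Its saline mean was 89.3 ± 3.08 CPM in D1 and 80.0 ± 4.10 CPM in A2a neurons (SD, n = 8). These lay nearer to the day 40 means (91.4 and 82.9 CPM) than to the cocaine day 1 means (82.7 and 74.3 CPM).

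Kdm2b (ENSRNOG00000025702), which brings a PRC1 variant to unmethylated CpG islands, gave 0.20 ± 0.06 over both types (edgeR adjusted p = 0.0496). Within a type Kdm2b gave 0.15 in D1 and 0.26 in A2a neurons, and neither difference passed. It averaged 22.9 ± 2.05 CPM at D1 cocaine day 40 and 20.6 ± 1.66 at D1 cocaine day 1, and 22.5 ± 3.86 at A2a cocaine day 40 and 18.8 ± 1.81 CPM at A2a cocaine day 1. The saline mean of Kdm2b was 22.5 ± 1.84 CPM in D1 and 22.5 ± 2.65 CPM in A2a neurons (SD, n = 8). In both types it lay close to the day 40 mean and above the cocaine day 1 mean. This call sat at the threshold: with a library left out the difference stayed between 0.17 and 0.22, and it passed in 9 of 48 fits, with adjusted p from 0.0267 to 0.0849.

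In each group of the wider list, the genes with the smallest p by day, apart from Phf1 and Kdm2b, did not pass in either type. Among further PRC1 core genes, Pcgf3, a relative of Bmi1, gave -0.20 ± 0.12 in D1 (adjusted p = 0.424) and -0.30 ± 0.12 in A2a neurons (adjusted p = 0.304). Phc1 gave -0.09 ± 0.07 in D1 (adjusted p = 0.572) and Phc3, both Polyhomeotic proteins of PRC1, -0.89 ± 0.44 in A2a neurons (adjusted p = 0.464). Without the shallowest library, A2a cocaine day 1 replicate 7, Phc3 turned to 0.32 (adjusted p = 0.784). Among PRC1 partners, Scmh1 gave -0.26 ± 0.10 in D1 neurons (adjusted p = 0.157) and L3mbtl2 gave 0.14 ± 0.06 in A2a neurons (adjusted p = 0.363).

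The PRC2 core subunit Suz12 gave -0.27 ± 0.13 in D1 neurons (adjusted p = 0.287), and the histone-binding subunits Rbbp7 and Rbbp4 had the smallest p in A2a neurons. Rbbp7 gave -0.03 ± 0.04 in D1 (adjusted p = 0.759) and -0.05 ± 0.04 in A2a neurons (adjusted p = 0.673), and Rbbp4 gave 0.12 ± 0.06 in A2a neurons (adjusted p = 0.520). Of the other PRC2 partners, Mtf2 gave -0.14 ± 0.10 in D1 (adjusted p = 0.568) and Lcor -0.85 ± 0.44 in A2a neurons (adjusted p = 0.502), which turned to 0.29 without that library (adjusted p = 0.830). Among genes that act against Polycomb, the histone H2A deubiquitinase Mysm1 gave 0.34 ± 0.15 (adjusted p = 0.236) and Asxl1, a partner of the deubiquitinase Bap1, -0.19 ± 0.09 (adjusted p = 0.305) in D1 neurons. Bap1 itself gave 0.09 ± 0.05 (adjusted p = 0.529) and Asxl2 -0.52 ± 0.30 (adjusted p = 0.547) in A2a neurons, and Asxl2 turned to 0.11 without that library (adjusted p = 0.931). The CBX genes of heterochromatin protein 1, Cbx1, Cbx3 and Cbx5, are not Polycomb proteins. They gave 0 of 3 calls by day in each type, where 1.85% (D1) and 0.263% (A2a) of all genes passed. Cbx3 was at 0.08 ± 0.05 in D1 (adjusted p = 0.503) and 0.12 ± 0.05 in A2a neurons (adjusted p = 0.418).

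**Figure D4:**
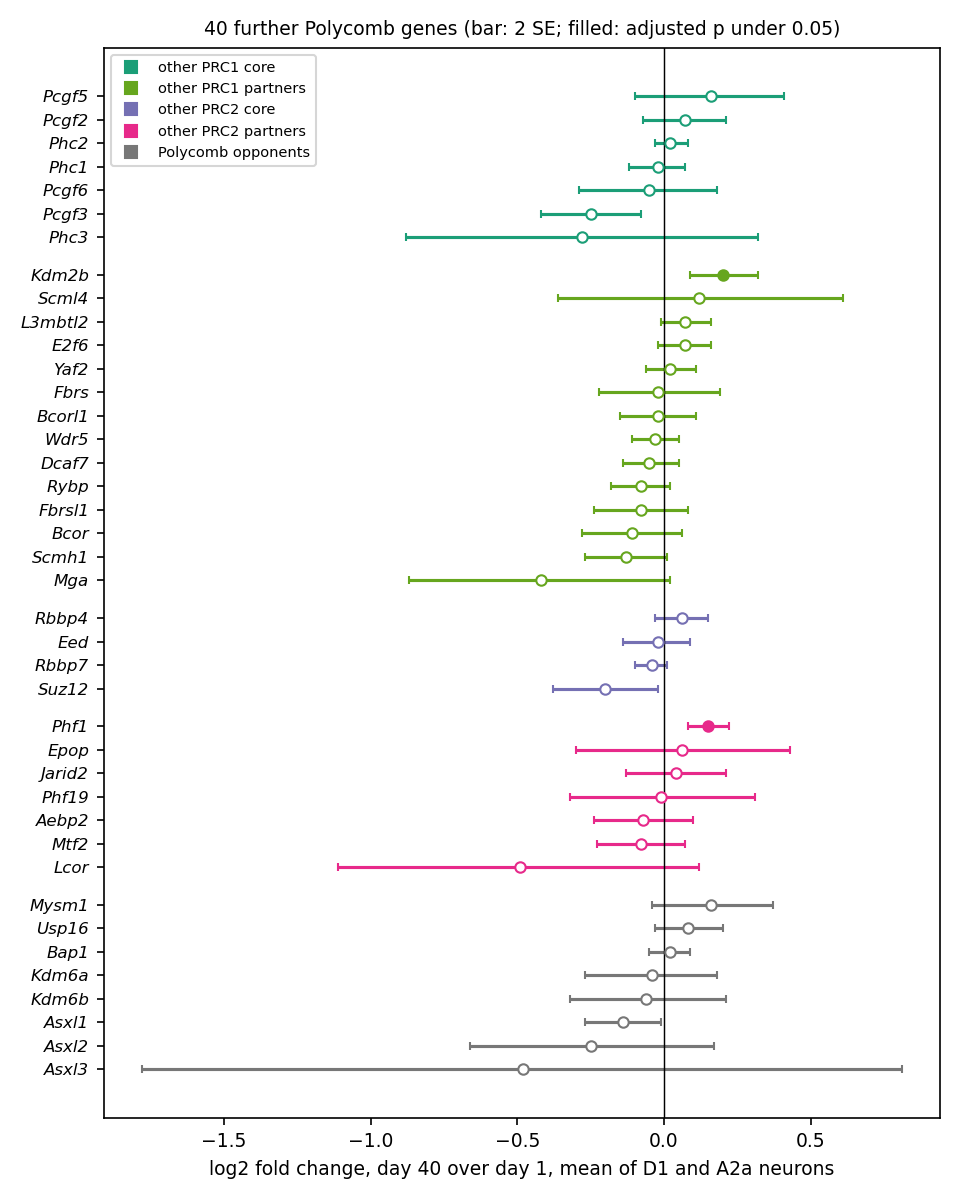
Log2 fold change of cocaine day 40 over cocaine day 1, averaged over D1 and A2a neurons (horizontal axis), for the 40 tested genes of the wider list grouped by role, with bars of 2 SE. Filled points passed the test, and these are Kdm2b at 0.20 and Phf1 at 0.15.

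Against saline, 1 of the 40 passed at day 40 in D1 neurons, where 2.61% of all genes passed. Scmh1 (ENSRNOG00000032183), a homologue of the fly PRC1 protein Scm, averaged 17.5 ± 3.22 CPM at D1 cocaine day 40, 21.0 ± 2.37 at D1 cocaine day 1 and 22.1 ± 3.17 CPM in D1 saline, with a log2 difference from saline of -0.33 ± 0.10 (edgeR adjusted p = 0.0485). It passed in 14 of 48 fits with a library left out, with adjusted p from 0.00864 to 0.156. In A2a neurons 0 of 40 passed at day 40, and at cocaine day 1 0 of 40 passed in either type, by edgeR and by DESeq2. An unadjusted p under 0.05 was reached there by 0 of 40 in A2a neurons at day 40 (5.38% of all genes), 2 of 40 in D1 neurons at day 1 (2.33%) and 7 of 40 in A2a neurons at day 1 (5.98%). The 3 interactions with neuron type called 0 of 40, by edgeR and by DESeq2. An unadjusted p under 0.05 was reached by 2 of 40 for day 40 against day 1 (10.5% of all genes), 1 of 40 for day 1 against saline (3.35%) and 3 of 40 for day 40 against saline (8.92%).

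Between neuron types, 9 of the 40 passed at cocaine day 40, 4 higher and 5 lower in D1. Of all genes 20.4% passed, 10.1% higher and 10.3% lower. The counts thus lie near the shares of all genes and show nothing particular to the list. Phf1 was higher in D1 neurons in all 3 conditions, by 0.14 ± 0.05 at day 40 (adjusted p = 0.0355), 0.15 ± 0.05 at cocaine day 1 (adjusted p = 0.0338) and 0.16 ± 0.05 in saline (adjusted p = 0.0351). It kept these calls in 42, 38 and 40 of the 48 fits with a library left out. Higher in D1 at day 40 were also Scml4, Yaf2 and E2f6. Yaf2, a partner of variant PRC1, gave 0.18 ± 0.06 (adjusted p = 0.0278), E2f6, a DNA-binding PRC1 partner, 0.21 ± 0.07 (adjusted p = 0.0152) and Scml4 0.98 ± 0.35 (adjusted p = 0.0351).

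Lower in D1 at day 40 were the PRC1 partners Bcor (-0.33 ± 0.12, adjusted p = 0.0455), Bcorl1 (-0.32 ± 0.09, adjusted p = 0.00743), Scmh1 (-0.33 ± 0.10, adjusted p = 0.0108) and Wdr5 (-0.19 ± 0.05, adjusted p = 0.00742) and the PRC2 core subunit Eed (-0.23 ± 0.08, adjusted p = 0.0282). In saline, where 8.13% of all genes passed, 2 of 40 passed, Phf1 and Bcorl1, with Bcorl1 at -0.34 ± 0.09 (adjusted p = 0.0114). At cocaine day 1, where 11.1% of all genes passed, also 2 of 40 passed, Phf1 and Rybp, a partner of variant PRC1, at -0.25 ± 0.07 (adjusted p = 0.0127). With a library left out, Bcorl1, Wdr5 and Scmh1 at day 40, Bcorl1 in saline and Rybp at day 1 passed in 48 of 48 fits, E2f6 in 47, Yaf2 in 44, Scml4 and Eed in 41 each and Bcor in 23. Scmh1 did not pass in the test of whether the day 40 difference from saline differed between the types (-0.29 ± 0.14, adjusted p = 0.535).

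The genes whose levels ran most like Cbx7 over the 48 libraries were ranked by Pearson's r in log2 CPM, which the 6 group means largely set. The 5 highest of 15579 genes were Cerk, the ceramide kinase (r = 0.73), Tnk2, a tyrosine kinase (0.70), Epb41l3, a membrane skeleton protein (0.68), Cys1, a protein of the cilium (0.67), and Phf1 (0.67). With group means taken out, r was 0.23 for Cerk, 0.26 for Tnk2, 0.32 for Epb41l3, 0.08 for Cys1 and 0.37 for Phf1. Their log2 differences of day 40 from day 1 were 0.22 in D1 and 0.20 in A2a neurons for Cerk, 0.16 and 0.35 for Tnk2, 0.22 and 0.16 for Epb41l3, and 0.49 and 0.50 for Cys1.

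Of the 8 other Polycomb genes, Ezh1 came nearest to Cbx7. Its r was 0.60 over the libraries and 0.41 with group means taken out, and it ranked 33 of 15579. Cbx2 had r = 0.22, and Cbx8 had -0.36. Ring1, Rnf2, Ezh2, Bmi1 and Cbx6 lay between -0.11 and 0.00. The median over all genes was -0.01. All these genes were measured in the same libraries, with the same depths, scaling and groups. Cbx7 was chosen on these groups, so the values describe likeness and no more.

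**Figure D5:**
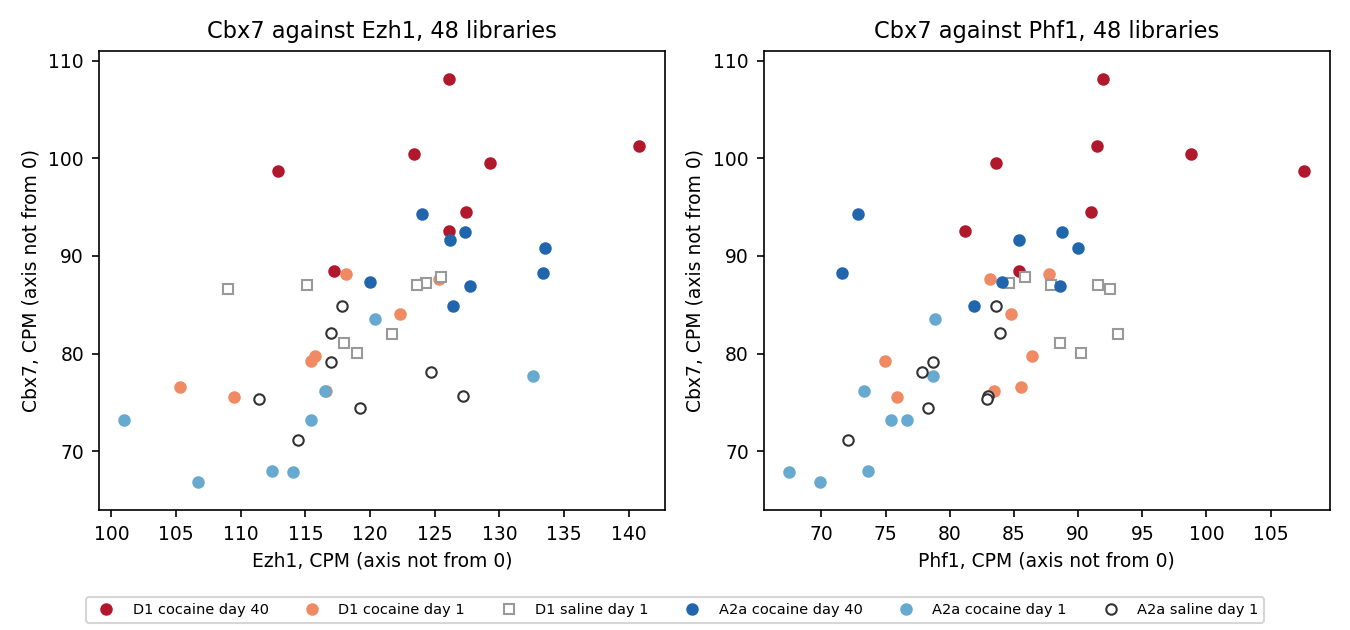
Cbx7 in CPM (vertical axes) against Ezh1 (left) and Phf1 (right) in CPM (horizontal axes) in the 48 libraries, coloured by group, with axes that do not start at 0. Most day 40 libraries lie above and to the right of the cocaine day 1 libraries of their neuron type, with overlap along both horizontal axes (r = 0.60 for Ezh1 and 0.67 for Phf1 on the log2 scale).

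Genes that Polycomb is known to silence had few counts. Of 61 listed developmental targets, mostly Hox, Tbx, Gata and Pax genes, 53 were in the table, 27 were at 0 counts in all 48 libraries and 48 stayed below 1 CPM in all 48. The 7 that could be tested were Tbx2, Tbx3, Cdkn2a, Cdkn2b, Gata2, Sox17 and Lhx2. By day 0 of 7 passed in D1 and 0 of 7 in A2a neurons, where 1.85% and 0.263% of all genes passed. An unadjusted p under 0.05 was reached by 0 and 1 of 7, as by 15.3% and 10.5% of all genes. These counts lie near the shares of all genes and show nothing particular to the targets. The fitted log2 differences of the 7 ran from -0.80 to 0.17 in D1 and from -0.66 to 1.2 in A2a neurons. A summed level of the 53 listed genes had a median of 21.5 CPM at D1 cocaine day 40 and 19.8 at D1 cocaine day 1, and 19.3 at A2a cocaine day 40 and 17.2 CPM at A2a cocaine day 1.

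On the chromosome, the protein-coding genes around Cbx7 did not pass the test by day. Its closest neighbours in the GRCr8 annotation, Apobec3 and Pdgfb, a growth factor, gave -1.2 ± 0.60 (adjusted p = 0.329) and -0.37 ± 0.13 (adjusted p = 0.113) in D1 neurons. In A2a neurons they gave 0.48 ± 0.58 (adjusted p = 0.832) and 0.01 ± 0.13 (adjusted p = 0.986). The next genes out are Cbx6, given above, and the ribosomal protein gene Rpl3, which gave -0.04 ± 0.05 (adjusted p = 0.802) in D1 and -0.00 ± 0.05 (adjusted p = 0.994) in A2a neurons.

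The libraries were enriched for the neurons of their labels, and not pure. All 4 tested D1 neuron markers (Drd1, Pdyn, Isl1 and Chrm4) were higher in D1 than in A2a neurons in each condition. All 5 A2a neuron markers (Penk, Drd2, Adora2a, Gpr6 and Sp9) were lower. At cocaine day 40 the summed A2a markers had a median of 1304.7 CPM in D1 and 10213.7 in A2a libraries. The summed D1 markers had 1607.2 and 271.2 CPM, the oligodendrocyte markers 4707.7 and 4644.8, and the astrocyte markers 2273.8 and 2064.2 CPM. Library totals ran from 5.3 to 55.1 M counts, with 47 of 48 above 24 M. Among the lists of other cells, microglia markers had calls by day in D1 neurons, and so had interferon-response genes, where 1.85% of all genes passed. There were none for astrocyte (0 of 9), oligodendrocyte (0 of 10), precursor and dividing cell (0 of 5), endothelial (0 of 6) and interneuron (0 of 6) markers. The summed level of 10 microglia markers, none of them at 0, ran from 175.8 to 331.3 CPM at D1 cocaine day 40, against 176.8 to 681.0 at cocaine day 1 and 251.0 to 751.1 CPM in saline, and 2 of 10 passed as lower at day 40 than at day 1.

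Of 11 interferon-response genes 7 passed as lower at day 40 than at day 1 in D1 neurons, where 1.85% of all genes passed. Their summed levels were 30.4 to 76.5 CPM at day 40, 33.9 to 290.8 at cocaine day 1 and 78.3 to 276.6 CPM in saline. Against saline, 4 of 10 microglia markers and 9 of 11 interferon genes passed as lower at D1 day 40, where 2.61% of all genes passed. In A2a neurons 0 of 10 microglia markers and 0 of 11 interferon genes passed by day, where 0.263% of all genes passed. An unadjusted p under 0.05 was reached by 2 and 0 of them, as by 10.5% of all genes. There the microglia sum ran from 282.4 to 670.7 CPM at cocaine day 40, against 173.5 to 697.4 CPM at cocaine day 1. The part of both lists in the differences of Cbx7, Ezh1, Phf1 and Kdm2b by day was not tested. Nor was their part in the differences of Cbx7 and Scmh1 from saline. Interneuron markers were higher in D1 than in A2a neurons, with 5 of 6 called at day 40, 5 of 6 at cocaine day 1 and 4 of 6 in saline. In these comparisons 20.4%, 11.1% and 8.13% of all genes passed. The part of the interneuron markers in the differences of Cbx7 and Cbx6 between the types was not tested.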

How the data were processed

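RNA bound to tagged ribosomes was sequenced from 48 rat brains, 8 per group, each brain a library per the labels, so p-values measure the spread between animals. The authors deposited raw counts per gene, not normalized. Per the submitters' processing notes, Rnor_6.0, bcl2fastq, Trimmomatic, STAR and SAMtools were used. The counter, its annotation, the strand setting and tool versions were not stated in those sources. Input RNA and the listed genes without a row in the table were not analysed here.

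From these counts, edgeR 4.0.16 (R 4.3.3) with TMM scaling kept genes by filterByExpr at a minimum count of 10 and fitted robust quasi-likelihood models to all 48 libraries and 6 groups. The 13 contrasts were each adjusted by Benjamini-Hochberg over all 15580 genes, with a threshold of 0.05. SE is the size of the log2 difference over the square root of F, and intervals are 2 SE either side. CPM uses TMM-scaled totals, and levels were not compared between genes, since lengths were not used. Likeness to Cbx7 used log2 CPM with a prior count of 2.

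Alternatives were DESeq2 1.42.0, RLE scaling, no filter, only the groups compared, the replicate number as a block, the description number as a covariate at day 1, and each library left out. The models were tested on simulated counts with 200 genes changed in D1 cocaine day 40. In D1 day 40 against day 1, edgeR recovered 14 of 50 genes changed 1.2-fold, 37 of 50 changed 1.5-fold and 47 of 50 changed 2-fold. The smallest of these changes were mostly missed, so a gene that did not pass may still differ by such an amount. The 9 genes, the lists and the tests were chosen with earlier results of these data known. Named were all 9 genes, the called genes of the wider list (or, per group of it, the 2 with the smallest p by day) and the 5 genes most like Cbx7. Of 168 pairs of libraries from the same group, 0 held identical counts, and the chi-square per gene was at least 9.83.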

Additional observations from a re-analysis of the deposited data

Results flagged for a closer look

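Of 90 groups of 8 values examined for a sample far from the rest, 54 were levels of the 9 Polycomb genes, and 0 of these 54 had one. Chance alone gives about 1 in 20. The library total of A2a cocaine day 40 replicate 1, 55.1 M counts, stood far above the next of its group at 42.5 M. The library total of A2a cocaine day 1 replicate 7, 5.29 M counts, stood far below the next of its group at 28.0 M. Without that shallow library the difference of Cbx7 between D1 and A2a neurons at cocaine day 1 was 0.13 and no longer passed (edgeR adjusted p = 0.0610).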

How the results depend on the processing

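No called value changed sign under any alternative run. With each of the 48 libraries left out in turn, Cbx7 differed by 0.25 to 0.30 (D1) and 0.27 to 0.32 (A2a) between day 40 and day 1, and between D1 and A2a neurons by 0.11 to 0.15 at day 40, 0.12 to 0.17 at cocaine day 1 and 0.11 to 0.15 in saline. Calls among the 8 other genes ran from 0 to 1 for A2a day 40 against day 1 and for D1 against A2a neurons at cocaine day 1 and in saline. Calls in the wider list ran from 0 to 1 for D1 day 40 against day 1, 1 to 2 for the mean of both types, 0 to 2 for D1 day 40 against saline, and, for D1 against A2a neurons, 4 to 11 at day 40, 1 to 2 at cocaine day 1 and 1 to 3 in saline.

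For D1 day 40 against saline the wider list had 2 calls by DESeq2 (E2f6 and Scmh1), 0 with no filter and 0 with only the groups compared. Its mean difference by day had 1 call, Phf1, with no filter and with only the groups compared, and 5 genes passed between the types at day 40 with only the groups compared. Cbx7 in D1 against A2a neurons gave 0.13 in saline by DESeq2 (adjusted p = 0.0486), and at cocaine day 1 gave 0.14 with only the groups compared (adjusted p = 0.10) and 0.14 with the description number as a covariate (adjusted p = 0.0541). That covariate gave 1 call among the 8 genes in saline, Cbx6. The causes were not tested.

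The labels give replicate numbers no meaning beyond naming samples. Of 120 same-numbered pairs, 28 had deviations correlated over 0.1 (mean r 0.045, against -0.006 for other pairs), and 63 of 240 comparisons were best with their own number, where 1 in 8 is 30. This is a hint from the data, not the design: at day 1 the numbers go in part with the description number, which was 89 in all 8 libraries numbered 1 or 2 and 92 in all 4 numbered 8. With the replicate block Cbx7 gave 0.13 in saline between the types (edgeR adjusted p = 0.0471), 24 genes in all were called by day in A2a neurons, where 41 were without it, and 0 for A2a cocaine day 1 against saline, where 11 were.

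Over all genes, day 40 against day 1 had 289 calls in D1 neurons (510 by DESeq2, 136 with only the groups compared), 41 in A2a neurons (69 and 5) and 278 in the mean (445 and 174). D1 day 40 against saline had 406 (625 by DESeq2), A2a day 40 against saline 0 (4 by DESeq2) and A2a cocaine day 1 against saline 11 (1 by DESeq2, 27 with no filter, 0 with only the groups compared and 0 with the covariate). The interactions by day and for day 40 against saline had 10 and 24 (121 and 80 by DESeq2, 0 and 54 with only the groups compared). The interaction for day 1 against saline had 1 (0 by DESeq2, with only the groups compared, with the block and with the covariate). With a library left out these totals ran from 157 (without D1 cocaine day 1 replicate 6) to 412 by day in D1 neurons, 30 to 69 (without A2a cocaine day 1 replicate 8) in A2a neurons and 172 (without D1 cocaine day 1 replicate 8) to 388 in the mean. They ran from 266 (without D1 day 40 replicate 4) to 548 for D1 day 40 against saline, 0 to 17 for A2a cocaine day 1 against saline, and 6 to 74 (without D1 cocaine day 1 replicate 2) and 10 to 45 for the interactions by day and for day 40 against saline. Of the 9 genes, Ezh2, Cbx2 and Bmi1 had the lowest median counts per library, 105, 171 and 325, and the widest SE by day. The part of depth in that width was not tested.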
